A study of Mus musculus with 12 samples.

Results

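The ear skin of mice injected with IL-36γ alone was compared with that of mice injected with PBS. The comparison took in the 3 libraries labelled IL-36γ and the 3 labelled PBS, 6 of the 12 libraries of an RNA-Seq study of 4 groups, in which the other groups received IL-17A alone or both cytokines. All animals were 8-week-old female C57BL/6 mice that carried no transgene or deletion. They received intradermal injections of 5 µL into the ear pinna, with 1 µg of recombinant murine IL-36γ in PBS or PBS without cytokine. Treatment ran over 4 consecutive days, after which ears were taken. The paper does not state the number of injections, so the time since the last one is not known. The study treated 5 mice in a group and sequenced 3 chosen at random. The ears were sequenced as whole tissue, so the values describe the sum of epidermis, dermis, cartilage, muscle and infiltrating cells, and fewer cells of a type and less RNA per cell cannot be told apart.

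IL-36γ belongs to the IL-1 family of cytokines and is made mainly by keratinocytes and other barrier cells. It binds the IL-36 receptor, encoded by Il1rl2, which pairs with the shared accessory chain encoded by Il1rap and signals through MyD88 to NF-κB and MAP kinases. In skin the pathway is best known from pustular psoriasis, in which loss of the IL-36 receptor antagonist leaves signalling unchecked, and its known targets include antimicrobial peptides, chemokines for neutrophils and the cytokines themselves. The question put to the data was which genes, pathways and cell type markers differed in the ear after IL-36γ as the sole stimulus.

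The 6 libraries held between 28770645 and 34759293 counts, and 3.15 to 3.73% of these lay in mitochondrial genes. Levels are given as CPM, the counts of a library scaled to a common total after TMM normalization, in the order of replicates 1, 2 and 3, and groups as mean ± SD of 3 mice. A log2 fold change is IL-36γ minus PBS, given with its standard error (SE), and the terms raised and lowered are kept for genes that passed both an adjusted p of 0.05 in the quasi-likelihood test of edgeR and a log2 fold change of 1 in either direction. The label skin was borne out by keratinocyte and dermal markers in every library, with Krt14 at 3382 CPM or more, Krt10 at 5054 CPM or more and Dcn at 2311 CPM or more. Some libraries stood apart from the others of their group. PBS replicate 1 held 642 CPM of summed skeletal muscle genes against 4711 and 4100 CPM in the other PBS libraries, and IL-36γ libraries held 3066, 1705 and 2586 CPM. PBS replicate 2 was the highest PBS library for many genes of inflamed epidermis. The part of these differences in the results was not tested.

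Of 19408 genes tested, 992 were raised (5.11%) and 385 lowered (1.98%), 1377 in all (7.1%). In 988 of the raised and 362 of the lowered genes the ranges of the 2 groups did not overlap. Such a separation was seen in 41.7% of all tested genes, with all IL-36γ libraries above in 22.4% and all below in 19.2%. The raised genes also changed by more: 281 of them exceeded a log2 fold change of 2 and 121 exceeded 3, whereas 32 of the lowered genes passed -2. The median was 1.51 among raised and -1.25 among lowered genes, and -0.02 over all tested genes. Scaling by library size alone shifted the median of all genes to -0.16 and the split to 822 raised and 698 lowered genes, so that 54.1% of the calls were raised, against 72% with TMM. Leaving out 1 library moved the lowered count from 385 to 696 (without PBS replicate 1), to 234 (without PBS replicate 3) and, within these limits, to 260 without PBS replicate 2 and 257 without IL-36γ replicate 2.

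**Figure D1:**
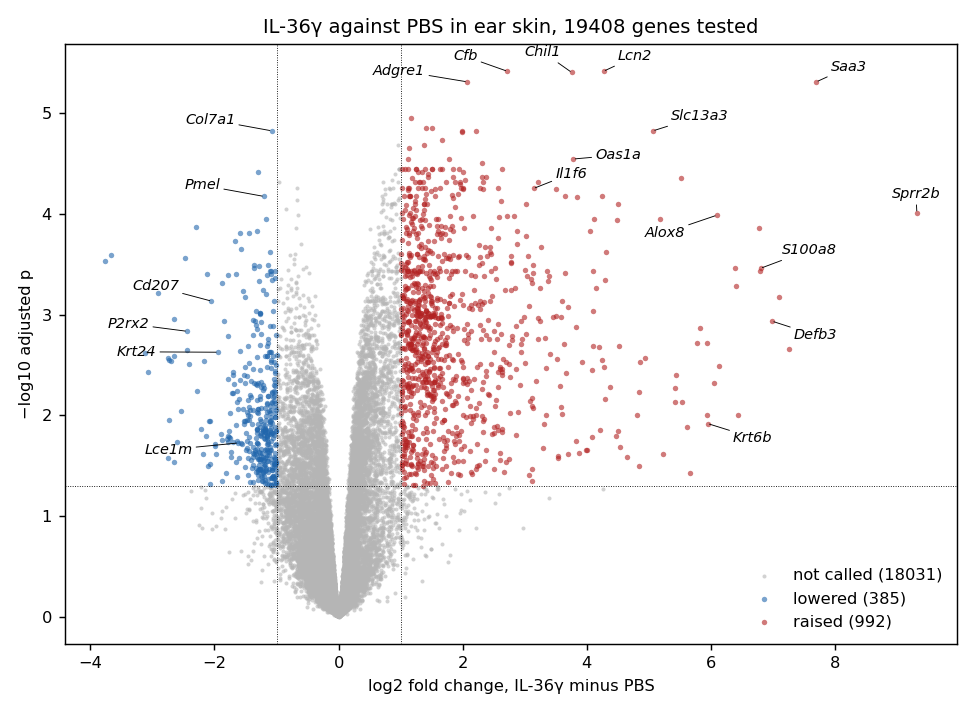
Log2 fold change (IL-36γ minus PBS, horizontal axis) against the −log10 of the adjusted p-value (vertical axis) for each tested gene, with raised genes in red, lowered genes in blue and the others in grey. The 992 raised genes reach a log2 fold change of 9.32 (Sprr2b), and the dotted lines mark the limits of the call.

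The 12 most raised genes with at least 5 CPM after IL-36γ were Sprr2b, Saa3, Uox, Defb3, S100a8, S100a9, Sprr2d, Stfa3, Lpo, BC100530, Alox8 and Krt6b, most of them genes of activated epidermis or of innate defence. Sprr2b, a small proline-rich precursor of the cornified envelope (ENSMUSG00000050092, chr3:92316620-92318085, GRCm38), was counted at 0.111, 0.17 and 0 CPM after PBS and at 58.8, 92.7 and 39.5 CPM after IL-36γ, a log2 fold change of 9.32 ± 0.99 (SE, adjusted p = 9.75e-05, and 10 without PBS replicate 2). Saa3, a serum amyloid A protein made locally in inflamed tissue (ENSMUSG00000040026, chr7:46711998-46715700), stood at 0.83, 0.934 and 0.364 CPM and at 141, 168 and 140 CPM, a log2 fold change of 7.70 ± 0.47 (adjusted p = 4.88e-06). For both genes every IL-36γ library lay far above every PBS library, and IL-36γ replicate 2 was the highest. S100a8, a subunit of the antimicrobial and chemotactic protein calprotectin (ENSMUSG00000056054, chr3:90668978-90670035), was found at 3.82, 31.5 and 2.24 CPM after PBS and at 1339, 1936 and 922 CPM after IL-36γ (6.80 ± 0.89, adjusted p = 0.000347). PBS replicate 2 was the highest of its group, and without it the log2 fold change of S100a8 was 8.84 (adjusted p = 1.65e-05). Alox8, an epidermal lipoxygenase, changed from 1.61, 8.18 and 1.00 CPM to 242, 307 and 193 CPM (6.09 ± 0.65, adjusted p = 0.000103, and 7.55 without PBS replicate 2). Uox, urate oxidase, which is otherwise known from liver, changed from 0.0554, 0.396 and 0 CPM to 15.9, 41.5 and 6.99 CPM (7.10 ± 1.04, adjusted p = 0.000673). The groups did not overlap for any of these genes, although the 3 IL-36γ mice spread widely for Uox, which was 9.34 without PBS replicate 2 and 6.19 without IL-36γ replicate 2.

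The smallest p-values among raised genes were those of Lcn2, Cfb, Chil1, Adgre1, Saa3 and Laptm5. Lcn2, lipocalin 2, which withholds iron from bacteria, rose from 2.51 ± 0.927 to 48.5 ± 11.5 CPM (4.27 ± 0.23, adjusted p = 3.83e-06). Chil1, a chitinase-like protein, was measured at 50.3, 55.1 and 30.1 CPM after PBS and at 613, 714 and 506 CPM after IL-36γ (3.76 ± 0.21, adjusted p = 3.94e-06). Adgre1, the gene of the macrophage antigen F4/80, was measured at 31.6, 41.2 and 33.6 CPM and at 160, 147 and 141 CPM (2.07 ± 0.13, adjusted p = 4.88e-06). Replicates differed little for Adgre1 and more for Lcn2 and Chil1, and no ranges overlapped between groups. Laptm5, a lysosomal protein of blood cells, rose from 47.6 ± 2.95 to 107 ± 4.03 CPM (1.17 ± 0.08, adjusted p = 1.12e-05). Cfb, complement factor B, rose from 1.82 ± 0.195 to 12.01 ± 0.472 CPM (2.72 ± 0.15, adjusted p = 3.83e-06). Of its exonic bases, 79.5% lie under a second annotated gene of the same strand, and 69.7% of its 76-base windows also occur there, so that its level is uncertain.

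The 12 most lowered with at least 5 CPM after PBS were P2rx2, H2-M5, Cd207, Krt24, Prr9, Mrgprb3, Cacna1e, Tmem229a, Lce1m, Paqr7, Col25a1 and A2m. Cd207 encodes langerin, the receptor that defines Langerhans cells (ENSMUSG00000034783, chr6:83671215-83677857), and it fell from 14.4, 24.1 and 20.04 CPM to 5.16, 2.47 and 6.58 CPM (-2.05 ± 0.31, adjusted p = 0.000736). Krt24, a keratin of differentiated epithelium, fell from 414, 233 and 259 CPM to 79.7, 57.4 and 98.5 CPM (-1.94 ± 0.36, adjusted p = 0.00237). P2rx2, an ATP-gated ion channel, fell from 5.54, 9.03 and 8.37 CPM to 1.06, 0.64 and 2.55 CPM (-2.44 ± 0.41, adjusted p = 0.00147, and -3.17 without IL-36γ replicate 3). No IL-36γ library reached the lowest PBS library for these 3 genes. Among lowered genes of smallest p, Col7a1, the collagen of anchoring fibrils below the epidermis (ENSMUSG00000025650, chr9:108953586-108984875), was measured at 231, 231 and 236 CPM and at 100, 108 and 123 CPM (-1.08 ± 0.08, adjusted p = 1.5e-05). Rab11fip4, Pmel, Tll1, Tyrp1 and Vipr1 followed, with log2 fold changes between -1.44 and -1.18. The calls of 3 of the most lowered genes rested on single libraries: without IL-36γ replicate 2 the adjusted p was 0.0715 for Prr9, 0.0779 for Mrgprb3 and 0.0724 for Lce1m. The calls of Prr9 and Mrgprb3 were also lost without PBS replicate 2 (0.0529 and 0.0571), those of Mrgprb3 and Lce1m without PBS replicate 3 (0.0647 and 0.0502), and that of Mrgprb3 without IL-36γ replicate 1 (0.0672).

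**Figure D2:**
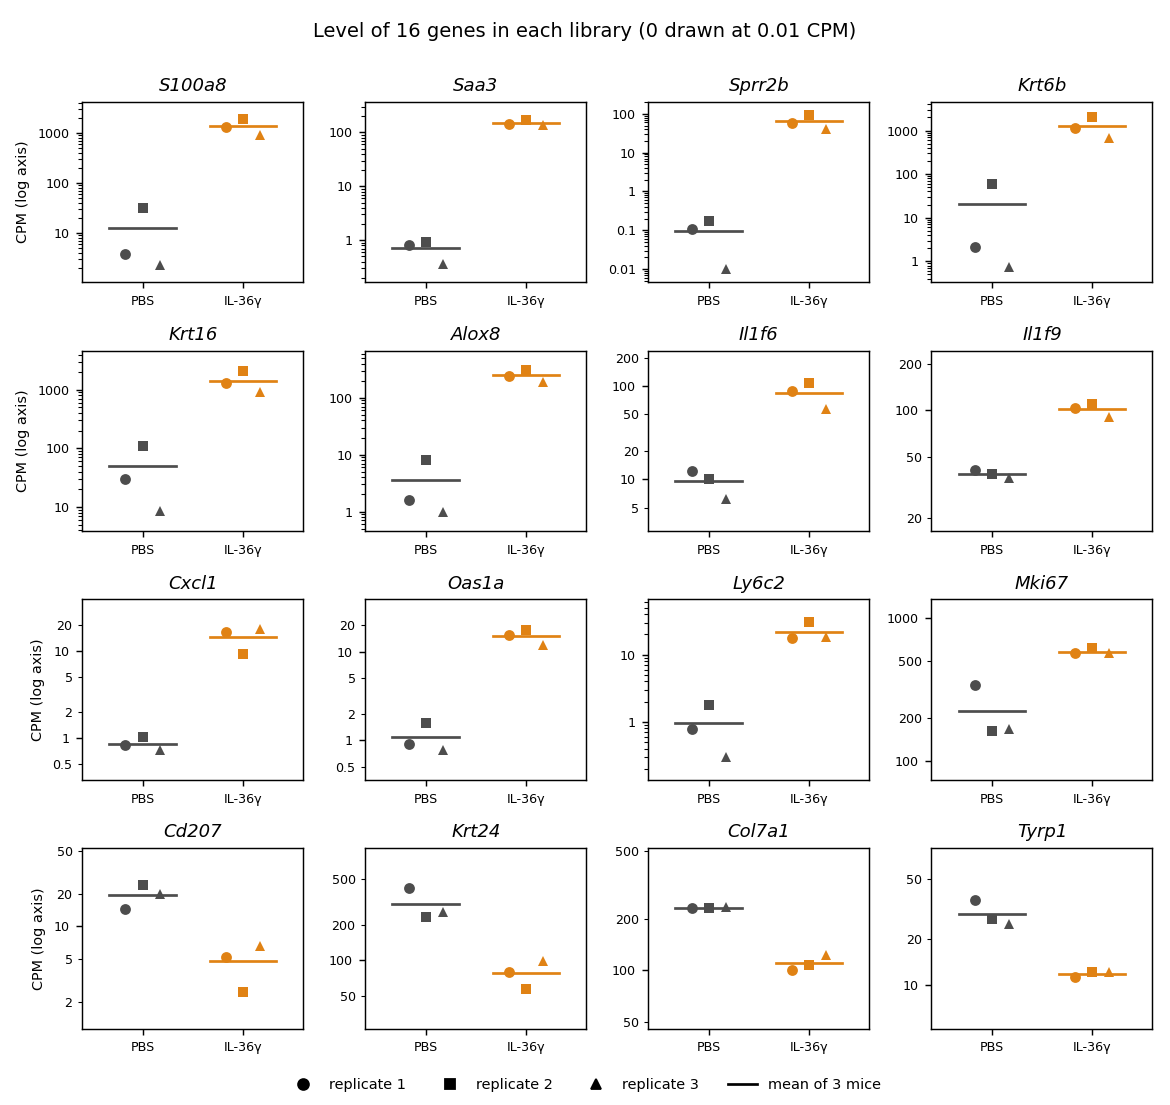
CPM of 16 genes in each library on a log axis, with PBS in grey and IL-36γ in orange, a symbol for each replicate and a line at the mean of 3 mice. PBS replicate 2 (square) is the highest PBS library for S100a8, Krt6b, Krt16 and Alox8, and no PBS library reaches an IL-36γ library in any of the 12 raised genes, nor the reverse in Cd207, Krt24, Col7a1 and Tyrp1.

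The IL-36 family itself was raised as a group of agonists together with the antagonist. Of 7 members tested, 4 were raised and 1 was lowered, with a median log2 fold change of 1.16. Il1f6 (IL-36α; ENSMUSG00000026984, chr2:24215418-24225702) rose most, from 12.5, 9.99 and 6.15 CPM to 87.7, 109 and 56.7 CPM (3.14 ± 0.30, adjusted p = 5.59e-05). Il1f9, the gene of IL-36γ, rose from 41.2, 38.8 and 36.4 CPM to 103, 110 and 90.2 CPM (1.38 ± 0.17, adjusted p = 0.000279). The injected material was protein, so these counts come from the mouse's own transcript. Il1f8 (IL-36β) rose from 30.1 ± 10.6 to 67.5 ± 13.2 CPM (1.16 ± 0.25, adjusted p = 0.00583), and Il1f5, which encodes the IL-36 receptor antagonist, from 153 ± 29.6 to 373 ± 62.5 CPM (1.29 ± 0.17, adjusted p = 0.000369). The receptor chains moved less: Il1rl2 was measured at 112 ± 5.91 and 144 ± 3.06 CPM (0.36 ± 0.09) and Il1rap at 70.3 ± 3.44 and 74.4 ± 2.09 CPM (0.08 ± 0.06), and neither was called. Il1f10, the gene of IL-38, fell from 10.05, 10.7 and 9.79 CPM to 5.16, 2.98 and 5.47 CPM (-1.17 ± 0.29, adjusted p = 0.0111, or -0.93 and not called without IL-36γ replicate 2). IL-38 is regarded as an inhibitory member, and its call was lost without IL-36γ replicate 2 (-0.93).

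In the IL-1, IL-18 and IL-33 axis 3 of 16 genes were raised and none lowered (median 0.63). They were Il18rap, a chain of the IL-18 receptor (1.97 ± 0.37, adjusted p = 0.00282), Casp4, an inflammatory caspase (1.55 ± 0.25, adjusted p = 0.00107), and Il1rn, the IL-1 receptor antagonist (1.03 ± 0.09, adjusted p = 3.58e-05). Il1rn lay at the limit of the fold change, and without PBS replicate 3, IL-36γ replicate 1 or IL-36γ replicate 2 its values were 0.95, 0.99 and 0.99. Il1b was counted at 1.61, 12.43 and 1.12 CPM after PBS and at 18.6, 41.6 and 18.1 CPM after IL-36γ. The ranges of Il1b did not overlap, but PBS replicate 2 came close to the IL-36γ libraries and the gene was not called (2.37 ± 0.86, adjusted p = 0.0583). Without that library Il1b was raised by 4.25 (adjusted p = 0.00884).

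Of 14 tested genes of the IL-17, IL-22 and IL-23 axis, 4 were raised (median 0.36), whereas Il17a, Il17b, Il23a and Il12b did not pass the filter on low counts. Il22, a lymphocyte cytokine that acts on keratinocytes, had 1 count in the PBS libraries together and 55 in the IL-36γ libraries, a ratio of 62.5 with a 95% counting interval from 10.8 to 2512. The fitted log2 fold change of Il22, which depends on the prior count, was 5.43, or 7.13 without PBS replicate 2 and 4.33 without IL-36γ replicate 2. The gene shares 29.5% of its 76-base windows with a copy. Il17c, an epithelial member, rose from 0.0277, 0.113 and 0.0303 CPM to 0.532, 0.579 and 0.826 CPM (3.40 ± 0.46, adjusted p = 0.000413, and 4.29 without PBS replicate 2). Ccr6, the chemokine receptor of IL-17-producing lymphocytes, rose from 0.563 ± 0.113 to 1.44 ± 0.414 CPM (1.35 ± 0.27, adjusted p = 0.00373). Il17f rose to 0.266, 1.34 and 0.344 CPM from 0.111, 0.17 and 0.0303 CPM (2.61 ± 0.76, adjusted p = 0.0236), and its call depended on IL-36γ replicate 2 (1.502 without it, adjusted p = 0.148) and on PBS replicate 3 (adjusted p = 0.0907 without it). All 4 genes were counted at low levels, and a single IL-36γ mouse, replicate 2, was the highest for Il22 and Il17f.

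Among cytokines of the TNF, IL-6 and IL-20 groups 4 of 15 were raised and 1 lowered (median 0.27). Il6 rose from 0.305, 0.255 and 0.242 CPM to 2.43, 1.61 and 2.31 CPM (2.96 ± 0.51, adjusted p = 0.00175), and Ltb, lymphotoxin beta, from 0.751 ± 0.141 to 1.72 ± 0.301 CPM (1.20 ± 0.26, adjusted p = 0.00603). The calls of Osm (oncostatin M, 1.47 ± 0.51, adjusted p = 0.0477) and Tslp (1.10 ± 0.34, adjusted p = 0.0308) were lost in most fits with a library left out, up to adjusted p-values of 0.179 for Osm without IL-36γ replicate 2 and of 0.12 for Tslp without PBS replicate 3. The raised count of this list was then 2 without PBS replicate 3, IL-36γ replicate 1 or IL-36γ replicate 2. Il11 was lowered (-1.03 ± 0.26, adjusted p = 0.013), but not without PBS replicate 1 (-0.89) or IL-36γ replicate 3 (-0.82). Tnf stood at 2.70 ± 0.76 and 4.56 ± 0.262 CPM and was not called (0.75 ± 0.24, adjusted p = 0.0337). None of 12 type 2 cytokines and targets was called (median 0.49), and Il4, Il5 and Il13 did not pass the filter. In that list 2 genes were raised without PBS replicate 2, and 1 without IL-36γ replicate 3.

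Receptors that sense microbes were mostly raised. Of 20 pattern recognition receptors 13 were raised and none lowered, with a median of 1.37. Fpr2, a receptor of formylated peptides, rose from 0.0554, 0.425 and 0 CPM to 2.16, 3.99 and 2.34 CPM (4.09 ± 0.73, adjusted p = 0.00207, and 6.42 without PBS replicate 2). Tlr1 rose from 2.37 ± 0.395 to 11.5 ± 3.57 CPM (2.27 ± 0.29, adjusted p = 0.000271), and Clec7a, the β-glucan receptor dectin-1, from 8.47 ± 4.88 to 36.2 ± 11.04 CPM (2.09 ± 0.43, adjusted p = 0.00463). Fpr1 was also raised (3.29 ± 0.93, adjusted p = 0.021), though not without PBS replicate 3 (adjusted p = 0.0846) or IL-36γ replicate 2 (0.0812), and by 5.39 without PBS replicate 2. Tlr3, Tlr4 and Tlr5 had log2 fold changes of 0.20, 0.29 and -0.32 and were not called.

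All 18 NF-κB subunits and feedback genes had positive log2 fold changes (median 0.45), but only Tnfaip3, Zc3h12a, Nfkbiz and Nfkbid passed both limits. Tnfaip3, which encodes the deubiquitinase A20, rose from 20.3, 34.996 and 28.5 CPM to 81.9, 61.8 and 98.6 CPM (1.53 ± 0.32, adjusted p = 0.00468). Zc3h12a, an RNase that degrades inflammatory transcripts, rose from 20.8 ± 3.59 to 54.5 ± 6.38 CPM (1.39 ± 0.15, adjusted p = 0.000116). Nfkbiz, the IκBζ cofactor, rose from 39.5 ± 4.54 to 81.0 ± 5.19 CPM (1.04 ± 0.11, adjusted p = 0.000113). Nfkbiz and Nfkbid stood near a log2 fold change of 1, and without PBS replicate 3 the count of this list fell to 2. Without any limit on the fold change 14 of the 18 passed the test. Of 16 genes of STAT3 and SOCS feedback only Stat4 was raised (3.00 ± 0.40, adjusted p = 0.000364), a lymphocyte gene that shares 19.4% of its windows with other transcripts, and Socs3 was measured at 25.1 ± 0.307 and 48.0 ± 5.68 CPM (0.94 ± 0.12, or 1.03 and called without IL-36γ replicate 3). Immediate early genes were raised in 5 of 18 cases (median 0.69), with Fos at 19.9, 27.5 and 26.2 CPM after PBS and 164, 142 and 151 CPM after IL-36γ (2.63 ± 0.53, adjusted p = 0.00397). Junb, Dusp1 and Zfp36 rose by log2 values of 1.11, 1.22 and 1.18. The fifth, Atf3 (1.52 ± 0.48, adjusted p = 0.0337), lost its call in 5 of the 6 fits that left out a library, with adjusted p-values between 0.0563 and 0.0981, and kept it without PBS replicate 3.

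Ligands of the EGF receptor went in both directions, with 2 of 11 genes of this family raised and 2 lowered (median 0.02). Amphiregulin (Areg) rose from 0.526, 0.708 and 0.637 CPM to 2.56, 2.04 and 3.31 CPM (2.07 ± 0.46, adjusted p = 0.00669) and Hbegf from 10.8 ± 0.96 to 26.4 ± 3.33 CPM (1.28 ± 0.20, adjusted p = 0.00089). Epiregulin (Ereg) fell from 52.5, 59.4 and 58.5 CPM to 28.8, 24.9 and 25.5 CPM (-1.11 ± 0.25, adjusted p = 0.00806). Betacellulin (Btc) fell from 20.7 ± 3.63 to 8.32 ± 2.15 CPM (-1.31 ± 0.34, adjusted p = 0.0138), but its adjusted p was 0.0604 without IL-36γ replicate 2. The receptor genes Egfr, Erbb2 and Erbb3 had log2 fold changes of -0.11, 0.02 and 0.37.

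Chemokines were raised in part. Of 5 ligands of CXCR2, Cxcl1 and Ppbp were raised (median of the list 2.43). Cxcl1 rose from 0.83, 1.02 and 0.727 CPM to 16.3, 9.26 and 17.7 CPM (4.06 ± 0.46, adjusted p = 0.000147) and Ppbp from 0.361 ± 0.0853 to 1.98 ± 0.577 CPM (2.43 ± 0.42, adjusted p = 0.00174). Cxcl2 was measured at 0.194, 5.01 and 0.182 CPM and at 4.06, 10.7 and 3.89 CPM. PBS replicate 2 lay above 2 of the IL-36γ libraries for Cxcl2, which was not called (1.79 ± 1.12, adjusted p = 0.246), nor were Cxcl3 (1.34 ± 1.26) and Cxcl5 (2.74 ± 0.97, adjusted p = 0.0528). Cxcl2 was raised by 5.02 without PBS replicate 2 (adjusted p = 0.0313), and Cxcl5 by 3.13 without IL-36γ replicate 3 (adjusted p = 0.0385). Of 9 monocyte-attracting CC chemokines 5 were raised (median 1.44). Ccl8 rose from 20.8, 30.5 and 22.2 CPM to 186, 122 and 132 CPM (2.58 ± 0.28, adjusted p = 0.000108), and Ccl7, Ccl2, Ccl9 and Ccl5 by log2 values of 1.74, 1.43, 1.44 and 2.19. Of 15 lymphocyte and homeostatic chemokines 3 were raised and 1 lowered (median 0.32). Cxcl13, which attracts B cells, rose from 0.133 ± 0.0383 to 0.737 ± 0.234 CPM (2.42 ± 0.53, adjusted p = 0.00627). Ccl20, the ligand of CCR6, rose from 1.61, 1.59 and 0.697 CPM to 6.82, 3.81 and 12.7 CPM (2.57 ± 0.66, adjusted p = 0.0139), but not without PBS replicate 3 (adjusted p = 0.0628). Cxcl9 (2.60 ± 0.78, adjusted p = 0.0278) lost its call when PBS replicate 1, 2 or 3 or IL-36γ replicate 2 was left out (0.0579, 0.0558, 0.0955 and 0.118), so that without PBS replicate 3 the raised count of this list was 1. Xcl1, the ligand of the receptor on cross-presenting dendritic cells, fell from 1.41, 1.56 and 1.67 CPM to 0.466, 0.548 and 0.448 CPM (-1.65 ± 0.22, adjusted p = 0.000392), and 2 genes of the list were lowered without PBS replicate 1 or IL-36γ replicate 3.

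Interferon-stimulated genes were raised in 17 of 22 cases (median 2.13), against 5.11% of all tested genes. In all 22 every IL-36γ library lay above every PBS library, against 22.4% of all tested genes. Oas1a, an antiviral oligoadenylate synthetase, rose from 0.914, 1.56 and 0.788 CPM to 15.6, 17.7 and 11.9 CPM (3.79 ± 0.30, adjusted p = 2.85e-05). Irf7, the transcription factor that amplifies type I interferon, rose from 10.3, 12.43 and 6.91 CPM to 48.1, 70.0 and 43.8 CPM (2.45 ± 0.33, adjusted p = 0.000369). Zbp1, a sensor of left-handed nucleic acids, rose from 1.55 ± 1.18 to 14.8 ± 5.11 CPM (3.25 ± 0.53, adjusted p = 0.00116). Isg15 rose from 1.44 ± 0.888 to 7.45 ± 2.18 CPM (2.37 ± 0.47, adjusted p = 0.00363). PBS replicate 2 was the highest PBS library for these 4 genes, and without it Zbp1 and Isg15 had log2 fold changes of 4.09 and 3.00. Reads of Oas1a and of Ifit3 are shared in part with paralogs, as 47.3% and 40.7% of their windows occur in other genes.

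Genes typical of the response to interferon-γ moved by less, with 14 of 19 raised and all 19 above the PBS range (median 1.24). The shares over all tested genes were 5.11% and 22.4%. Psmb8, an immunoproteasome subunit, rose from 16.2 ± 2.09 to 53.7 ± 6.99 CPM (1.73 ± 0.22, adjusted p = 0.000277) and Gbp5, a guanylate-binding protein, from 2.08 ± 0.583 to 6.62 ± 1.33 CPM (1.67 ± 0.34, adjusted p = 0.00435). Gbp2 rose from 10.8, 19.3 and 15.5 CPM to 52.97, 72.2 and 44.9 CPM (1.90 ± 0.43, adjusted p = 0.00749). With PBS replicate 1 and IL-36γ replicate 2 both left out, 6 genes of this list were raised. Ifng itself did not pass the filter on low counts. None of 9 MHC class II genes was called (median 0.15), with Cd74 at 411 ± 78.8 and 428 ± 44.9 CPM and H2-Aa at 284 ± 49.3 and 316 ± 35.5 CPM.

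Antimicrobial proteins had one of the highest medians of all lists, 3.84, with 13 of 16 raised and 1 lowered. S100a9, the partner of S100a8, rose from 5.26, 45.2 and 3.36 CPM to 1865, 2818 and 1299 CPM (6.79 ± 0.90, adjusted p = 0.000369, and 8.85 without PBS replicate 2). Defb3, a β-defensin (chr8:19293360-19295291), rose from 0.083, 0.198 and 0.0303 CPM to 11.7, 26.4 and 3.34 CPM (6.99 ± 1.13, adjusted p = 0.00117), and Defb4 from 0.114 ± 0.0738 to 6.68 ± 5.63 CPM (5.82 ± 0.97, adjusted p = 0.00135). For Defb3 the IL-36γ mice differed among themselves by a wide margin, with replicate 2 the highest and replicate 3 the lowest, and its log2 fold change was 7.80 without PBS replicate 2 and 6.11 without IL-36γ replicate 2. The same held for Defb4, at 6.45 and 4.88. Lpo, lactoperoxidase, rose from 0.637, 1.25 and 0.273 CPM to 63.5, 89.1 and 29.6 CPM (6.38 ± 0.83, adjusted p = 0.000342, and 7.03 without PBS replicate 2). Ltf, lactoferrin of neutrophil granules, was lowered from 0.429 ± 0.342 to 0.0641 ± 0.0286 CPM (-2.65 ± 0.81, adjusted p = 0.029), a call that was lost without PBS replicate 2 (-1.77) or any 1 of the IL-36γ libraries.

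Of 15 acute-phase proteins 7 were raised (median 0.57). Beside Saa3 these included Saa1, which rose from 0.369 ± 0.157 to 2.75 ± 0.904 CPM (2.88 ± 0.34, adjusted p = 0.0002) and shares 18.2% of its windows with other transcripts, and Serpina3n, a serine protease inhibitor, which rose from 31.4 ± 3.07 to 89.0 ± 5.62 CPM (1.504 ± 0.10, adjusted p = 1.39e-05). Lbp, Ptx3 and Orm1 had log2 fold changes of 0.13, 0.20 and 0.27. The raised count of this list was 5 to 6 with 1 library left out and 4 with scaling by library size alone. Hp (1.02) lost its call without PBS replicate 3 (0.86), IL-36γ replicate 1 (0.90) or IL-36γ replicate 3 (0.93). In the complement list Cfb, C3ar1 and C1ra were raised and C7 was lowered out of 13 genes (median 0.57). C3ar1, the C3a receptor, rose from 22.7 ± 3.28 to 86.5 ± 10.04 CPM (1.93 ± 0.19, adjusted p = 6.41e-05), and C7, a component of the membrane attack complex, fell from 0.588 ± 0.227 to 0.0978 ± 0.0326 CPM (-2.53 ± 0.60, adjusted p = 0.00913). C3 was measured at 107, 333 and 368 CPM after PBS and at 601, 464 and 685 CPM after IL-36γ, and PBS replicate 1 stood low (1.12 ± 0.39, adjusted p = 0.0518).

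In the list of prostaglandin and lipoxygenase enzymes 4 of 20 genes were raised and 2 lowered (median 0.16). Alox5ap, which presents arachidonic acid to 5-lipoxygenase, rose from 19.8 ± 2.62 to 51.8 ± 4.58 CPM (1.39 ± 0.13, adjusted p = 5.59e-05), whereas Alox5 itself had a log2 fold change of -0.47. Ltc4s, leukotriene C4 synthase, fell from 3.79, 5.38 and 4.46 CPM to 1.70, 1.07 and 1.93 CPM (-1.54 ± 0.22, adjusted p = 0.000589), and Ptgds, prostaglandin D synthase, from 3.71 ± 0.888 to 1.498 ± 0.502 CPM (-1.31 ± 0.27, adjusted p = 0.00484). Alox15 (1.88 ± 0.52) and Ptgs2 (1.05 ± 0.36, adjusted p = 0.0488) were raised with all libraries, but neither without PBS replicate 3 or IL-36γ replicate 1, when the raised count was 2. Alox15 was at 2.79 without PBS replicate 2. The call of Ptgs2 was also lost without PBS replicate 1 (adjusted p = 0.0779), PBS replicate 2 (0.0637) or IL-36γ replicate 2 (0.215). Oxidant and antioxidant genes were raised in 5 of 21 cases (median 0.40), namely the cystine transporter Slc7a11 (2.63 ± 0.52, adjusted p = 0.00375) and 4 subunits of the phagocyte NADPH oxidase, with Cybb at 23.1, 30.2 and 25.4 CPM after PBS and 98.5, 96.3 and 87.9 CPM after IL-36γ (1.85 ± 0.17, adjusted p = 4.28e-05). The epithelial oxidases Duox1, Duox2 and Nox1 had log2 fold changes of -0.69, -0.46 and -0.70 and were not called.

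**Figure D3:**
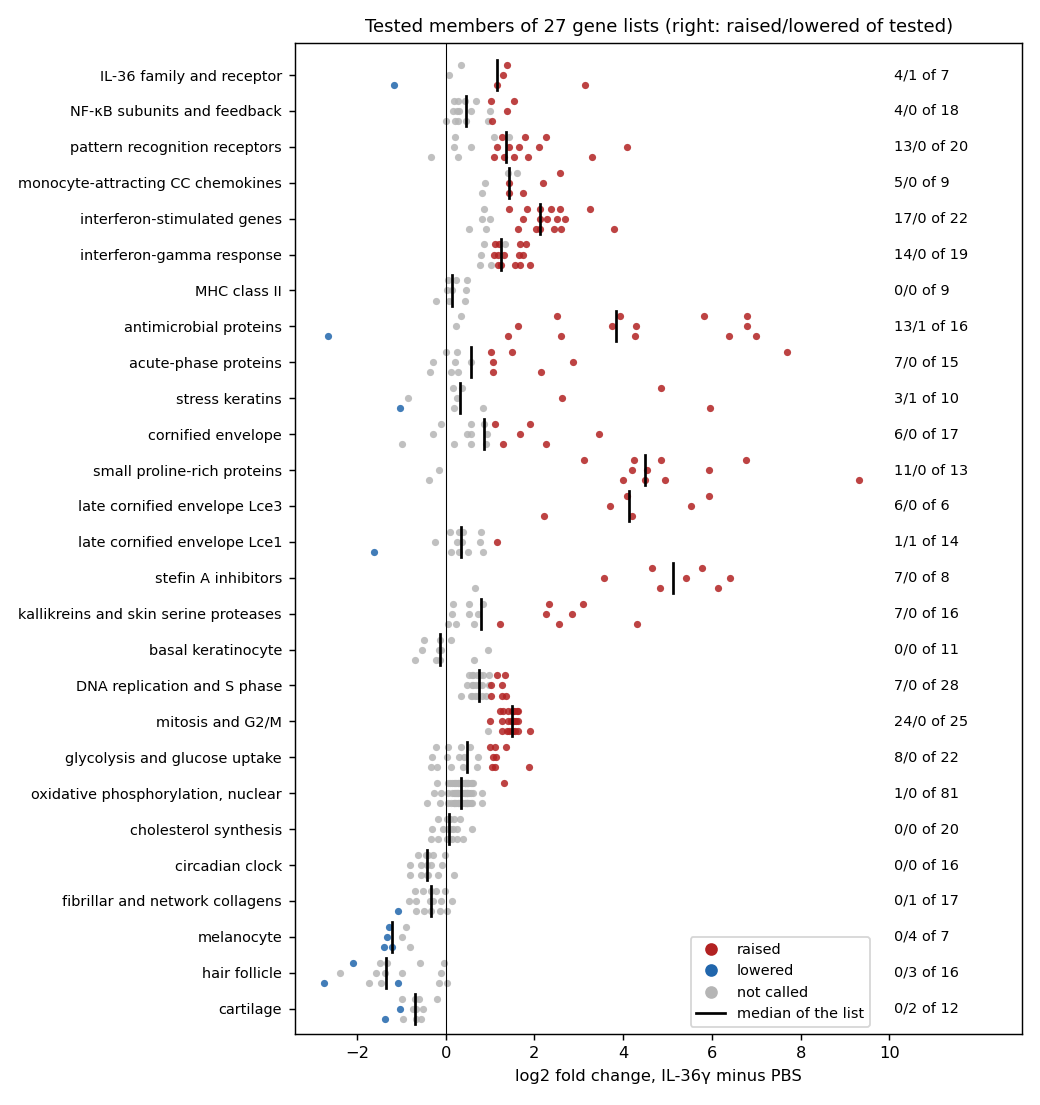
Log2 fold change (IL-36γ minus PBS) of the tested members of 27 lists, 1 list per line, with raised members in red, lowered in blue, the others in grey and a black line at the median of each list. Stefin A inhibitors, small proline-rich proteins, Lce3 genes and antimicrobial proteins reach medians of 3.84 to 5.13, while melanocyte and hair follicle genes have medians of -1.20 and -1.35.

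In the epidermis, some stress keratins and cornified envelope genes were raised, and basal markers were not called. Krt6b, a keratin of wounded and psoriatic epidermis, was measured at 2.19, 59.7 and 0.727 CPM after PBS and at 1123, 2070 and 678 CPM after IL-36γ (5.95 ± 1.49, adjusted p = 0.0121). Krt16, its partner, was measured at 29.9, 110 and 8.55 CPM and at 1283, 2119 and 916 CPM (4.86 ± 0.93, adjusted p = 0.00296). PBS replicate 2 was the highest PBS library for both, and without it the log2 fold changes were 9.77 and 6.22. Krt6a was raised from 75.1 ± 24.3 to 465 ± 353 CPM (2.63 ± 0.68, adjusted p = 0.0148), but not without PBS replicate 3 (adjusted p = 0.0674) or IL-36γ replicate 2 (1.81, adjusted p = 0.0709). Krt6a and Krt6b share 38.3% and 39.2% of their 76-base windows with other transcripts, and Krt16 shares 28.7%. Krt17 was not called, at 280 ± 29.99 and 337 ± 83.2 CPM. In all, 3 of 10 stress and simple keratins were raised and 1, Krt7, was lowered (median 0.32), the latter not when PBS replicate 1, IL-36γ replicate 2 or IL-36γ replicate 3 was left out (-0.86, -0.92 and -0.96).

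None of 11 basal keratinocyte genes was called (median -0.13). Their sum was nevertheless higher after IL-36γ, 15885 to 18429 CPM against 12709 to 14108 CPM, through Krt14 (3987 ± 756 and 7737 ± 1193 CPM, 0.96 ± 0.18) and Krt5 (0.63 ± 0.13), while Krt15, a keratin of quiescent basal cells, stood at 1243 ± 122 and 769 ± 113 CPM (-0.69 ± 0.15). Krt14 was called without PBS replicate 1 (1.12) or IL-36γ replicate 3 (1.08). Of 10 suprabasal genes 1 was raised (median 0.38). It was Krt1, an early keratin of differentiation, at 527, 353 and 296 CPM after PBS and 4144, 4248 and 1938 CPM after IL-36γ (3.13 ± 0.41, adjusted p = 0.000319). Its partner Krt10 was measured at 6100 ± 1786 and 10256 ± 1671 CPM and was not called (0.75 ± 0.20), except without PBS replicate 1 (1.02).

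The cornified envelope is the protein shell of dead keratinocytes, and 6 of 17 of its genes were raised (median 0.86). Rptn, repetin, rose from 84.8, 59.9 and 63.0 CPM to 739, 1211 and 334 CPM (3.46 ± 0.55, adjusted p = 0.00105), and Casp14, the caspase that degrades filaggrin, from 25.4 ± 7.36 to 121 ± 25.3 CPM (2.26 ± 0.27, adjusted p = 0.000205). Ivl, involucrin, rose from 61.5 ± 8.36 to 134 ± 20.1 CPM (1.12 ± 0.17, adjusted p = 0.000832), though by 0.99 without IL-36γ replicate 1. Flg, filaggrin, was measured at 577, 124 and 154 CPM and at 1453, 833 and 900 CPM. PBS replicate 1 was the highest of its group for Flg, which was raised (1.90 ± 0.48, adjusted p = 0.0131) by 2.94 without that library and was not called without PBS replicate 3 (adjusted p = 0.0562) or IL-36γ replicate 1 (0.0536). Flg2, a related gene, lay at 2565 ± 123 and 1301 ± 367 CPM and was not called (-0.98 ± 0.38, adjusted p = 0.0708), and Lor, loricrin, at 265 ± 57.4 and 394 ± 59.3 CPM (0.57 ± 0.20).

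Families of envelope precursors differed from each other. Of 13 small proline-rich genes 11 were raised (median 4.50), all of the Sprr2 group that was tested and Sprr1b, while Sprr1a (60.2 ± 17.8 and 54.0 ± 7.57 CPM, -0.16 ± 0.31) and Sprr4 (-0.38) were not called. Sprr2d rose from 1.05, 2.24 and 0.242 CPM to 119, 190 and 85.3 CPM (6.78 ± 0.77, adjusted p = 0.000139) and Sprr1b from 15.6, 9.40 and 3.55 CPM to 76.4, 124 and 47.2 CPM (3.11 ± 0.72, adjusted p = 0.00805). Without PBS replicate 2 the value of Sprr2d was 7.62, and without PBS replicate 3 the raised count was 7. Sprr2a1 and Sprr2a2 share 94.2% and 94.6% of their windows with other genes and cannot be told from their copies. All 6 Lce3 genes, late envelope genes of injured epidermis, were raised (median 4.14), with Lce3a at 0.305, 0.623 and 0.242 CPM after PBS and 18.1, 31.5 and 5.41 CPM after IL-36γ (5.54 ± 1.26, adjusted p = 0.00746, and 4.90 without IL-36γ replicate 2). That count was 3 without PBS replicate 2, 2 without PBS replicate 3 and 2 without IL-36γ replicate 2, with the direction unchanged, and Lce3c to Lce3f share 27.8 to 45.5% of their windows with other genes. Of 14 Lce1 genes, expressed in resting epidermis, 1 was raised and 1 lowered (median 0.34). Lce1f rose by 1.17 ± 0.31 (adjusted p = 0.0162), a call lost without PBS replicate 2 or 3 or IL-36γ replicate 1 (0.064, 0.0733 and 0.0591), 3 genes of the list were raised without PBS replicate 1, and Lce1m was measured at 322, 310 and 314 CPM after PBS and 118, 55.7 and 135 CPM after IL-36γ (-1.62 ± 0.44, adjusted p = 0.0189). The call of Lce1m was lost without PBS replicate 3 (0.0502) or IL-36γ replicate 2 (0.0724).

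These families lie in the epidermal differentiation complex on chromosome 3. Between S100a11 and S100a1, from position 90511034 to 93526287 of GRCm38, 28 of 73 tested genes were raised (38.4%, against 5.11% of all tested genes) and 3 were lowered (Prr9, Lce1m and Tchh). The stretch was chosen for counting after the values were seen. Raised genes stood in blocks, with the Sprr2 genes on one side of most Lce1 genes and the Lce3 genes on the other. S100a8, S100a9 and S100a7a were raised among the flanking S100 genes (S100a7a 3.54 ± 1.04, adjusted p = 0.0257), and S100a1, S100a4, S100a6, S100a13, S100a14 and S100a16 were not called.

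**Figure D4:**
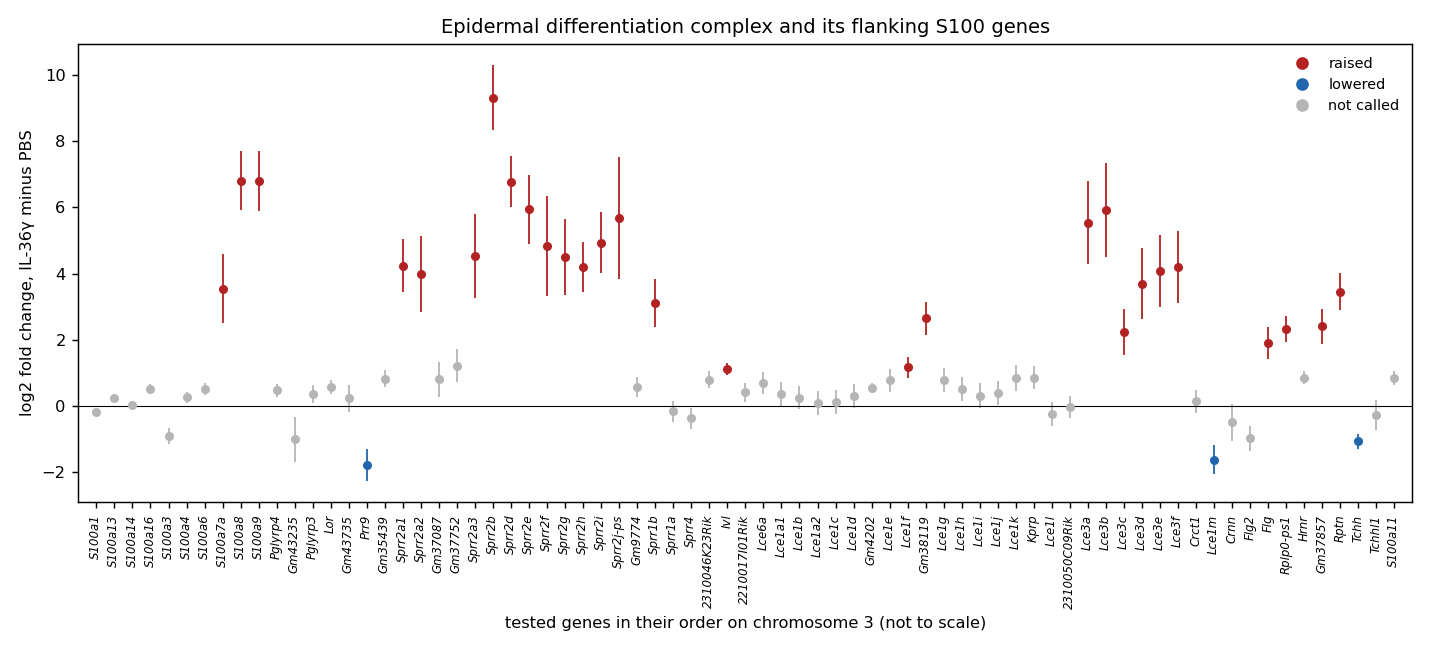
Log2 fold change (IL-36γ minus PBS) with its SE for 73 tested genes of the epidermal differentiation complex, in their order on chromosome 3, with raised genes in red, lowered genes in blue and the others in grey. The raised Sprr2 and Lce3 genes lie on either side of most Lce1 genes, of which 1 of 14 was raised.

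Inhibitors and proteases of the epidermis were raised in part. Of 8 stefin A genes, inhibitors of cysteine proteases, 7 were raised (median 5.13). These 7 are all the genes tested from Stfa1 to Stfa3 on chromosome 16 (positions 36276951 to 36455392), a stretch that leaves out Csta1. Its bounds are themselves raised genes and were set after the values were seen. Stfa3 rose from 2.05, 5.80 and 0.758 CPM to 255.98, 333 and 145 CPM (6.40 ± 0.90, adjusted p = 0.000521), and BC100530 from 1.44, 14.4 and 0.364 CPM to 363, 503 and 276 CPM (6.14 ± 1.19, adjusted p = 0.00323). Without PBS replicate 2 these values were 7.42 and 8.69. Csta1, the remaining member, was measured at 80.1 ± 12.8 and 127 ± 21.5 CPM (0.67 ± 0.24, adjusted p = 0.0525). Of 16 kallikreins and related serine proteases, which shed the horny layer, 7 were raised (median 0.79). Klk13 rose from 3.85, 1.84 and 1.36 CPM to 50.9, 63.1 and 27.1 CPM (4.31 ± 0.53, adjusted p = 0.000237), Prss27 by 3.10 ± 0.43 and Klk6 by 2.56 ± 0.51, whereas Klk5 and Klk10 had log2 fold changes of 0.14 and 0.16. Of 21 Serpinb inhibitors 2 were raised and 2 lowered (median 0.23). Serpinb3a, the counterpart of the human squamous cell carcinoma antigens, rose from 8.53, 5.61 and 2.55 CPM to 95.8, 148 and 72.4 CPM (4.24 ± 0.42, adjusted p = 6.69e-05). Serpinb9b and Serpinb1c fell (-1.70 ± 0.37 and -1.44 ± 0.33), the latter not without PBS replicate 1 (-0.96), and without that library 4 genes of the list were raised.

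Barrier lipids gave 1 raised gene and connexins 3, where 5.11% of all tested genes were raised. Degs2, which makes phytoceramides, was raised from 8.57 ± 3.76 to 28.5 ± 7.77 CPM (1.73 ± 0.38, adjusted p = 0.00601), the only one of 19 genes of ceramide barrier lipids that was called (median 0.34). Of 8 connexins 3 were raised (median 0.36). Gjb6 rose from 5.48, 2.69 and 1.97 CPM to 29.6, 36.9 and 18.7 CPM (3.06 ± 0.47, adjusted p = 0.000832), Gjb2 from 17.9 ± 9.58 to 83.9 ± 29.9 CPM (2.23 ± 0.43, adjusted p = 0.00329) and Gja1 by 1.32 ± 0.22. These encode connexins 30, 26 and 43, channels between neighbouring keratinocytes.

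Promoters of the families that moved together are shown for 5 genes, to place the letters of known motifs beside the changes. The 250 bases before the start of each gene were read from RefSeq (GRCm38.p6), which held a promoter for 12677 of 19405 tested symbols, and searched on both strands for NF-κB (by name), AP-1 (TGANTCA), C/EBP (TTGCNNAA), STAT (TTCNNNGAA) and the interferon-stimulated response element, ISRE (GAAA, any 2 bases, GAAA). The pairs of list and motif were chosen after the data were seen, each gene is the most changed called member of its list that holds the motif, and a match is a description of letters. Capitals mark the match, on the strand of the gene:
Sprr2b (AP-1, chr3:92316455-92316704, strand plus): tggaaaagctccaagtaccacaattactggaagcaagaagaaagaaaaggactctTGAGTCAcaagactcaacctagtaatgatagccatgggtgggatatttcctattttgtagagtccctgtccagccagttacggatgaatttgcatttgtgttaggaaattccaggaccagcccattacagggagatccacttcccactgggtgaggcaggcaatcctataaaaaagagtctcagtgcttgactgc
Defb3 (C/EBP, chr8:19293111-19293360, strand plus): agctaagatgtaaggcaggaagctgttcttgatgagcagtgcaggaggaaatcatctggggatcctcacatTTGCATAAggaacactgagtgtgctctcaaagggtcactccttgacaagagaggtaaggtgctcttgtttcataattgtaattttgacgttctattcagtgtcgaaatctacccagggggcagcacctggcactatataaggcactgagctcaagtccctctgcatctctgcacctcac
Cxcl1 (NF-κB, chr5:90890995-90891244, strand plus): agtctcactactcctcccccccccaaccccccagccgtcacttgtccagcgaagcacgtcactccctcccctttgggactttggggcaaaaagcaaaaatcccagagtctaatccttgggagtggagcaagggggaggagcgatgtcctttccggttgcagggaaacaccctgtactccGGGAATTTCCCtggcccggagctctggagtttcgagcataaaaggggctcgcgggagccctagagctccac
Oas1a (ISRE, chr5:120907526-120907775, strand minus): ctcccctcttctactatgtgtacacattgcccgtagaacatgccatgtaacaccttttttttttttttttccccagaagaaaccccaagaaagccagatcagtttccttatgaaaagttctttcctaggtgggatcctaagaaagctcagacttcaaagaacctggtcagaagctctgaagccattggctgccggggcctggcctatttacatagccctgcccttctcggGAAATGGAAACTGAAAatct
Tgtp2 (STAT, chr11:49064213-49064462, strand minus): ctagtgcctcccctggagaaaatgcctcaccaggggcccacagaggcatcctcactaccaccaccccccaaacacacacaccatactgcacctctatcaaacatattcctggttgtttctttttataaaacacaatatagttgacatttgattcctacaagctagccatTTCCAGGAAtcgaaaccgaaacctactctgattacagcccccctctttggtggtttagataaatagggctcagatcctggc

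Distances are counted from the RefSeq start, which for Sprr2b lies inside the gene as GENCODE places it. The AP-1 match of Sprr2b began 195 bases before that start, the C/EBP match of Defb3 179 bases, and the STAT match of Tgtp2 81 bases. Cxcl1 held 2 overlapping NF-κB matches, at 71 and 70 bases, and Oas1a 2 overlapping ISRE matches, at 20 and 14 bases. Over all tested genes with a promoter NF-κB was found in 8.65%, AP-1 in 5.03%, C/EBP in 7.83%, STAT in 5.96% and ISRE in 2.78%. Among 671 raised genes these shares were 13.1%, 10.6%, 12.1%, 8.49% and 9.84%, and among 206 lowered genes 6.31%, 6.8%, 6.8%, 6.8% and 1.94%. By list, AP-1 was found in 8 of 12 small proline-rich genes (66.7%), C/EBP in 7 of 13 antimicrobial genes (53.8%), ISRE in 9 of 14 genes of the response to interferon-γ (64.3%) and in 7 of 16 interferon-stimulated genes (43.8%), and NF-κB in 3 of 4 CXCR2 ligands (75%). Tgtp2 itself was raised from 0.881 ± 0.457 to 3.12 ± 1.43 CPM (1.82 ± 0.48, adjusted p = 0.0151), but not without PBS replicate 3 (0.062) or IL-36γ replicate 2 (0.0719), and 81.2% of its windows occur in other genes.

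Genes of mitosis were raised almost without exception, and those of DNA replication in part. Of 25 genes of mitosis and G2/M 24 were raised (median 1.497, range 0.97 to 1.90), against 5.11% of all tested genes. In all 25 the IL-36γ libraries lay above the PBS libraries, against 22.4% of all tested genes. Mki67, the proliferation antigen Ki-67, was measured at 340, 163 and 168 CPM after PBS and at 568, 615 and 569 CPM after IL-36γ (1.39 ± 0.23, adjusted p = 0.00131). Plk1, a kinase of mitotic entry, was measured at 8.17, 3.17 and 3.64 CPM and at 19.7, 21.0 and 15.5 CPM (1.90 ± 0.32, adjusted p = 0.00138). PBS replicate 1 was the highest of its group for both. Of 28 genes of DNA replication 7 were raised, and all 28 had positive values (median 0.76). Mcm5, a helicase subunit, rose from 31.4 ± 8.79 to 70.2 ± 12.5 CPM (1.16 ± 0.17, adjusted p = 0.000772), and Pcna was measured at 68.1 ± 11.6 and 103 ± 9.28 CPM (0.60 ± 0.11). Without PBS replicate 1 the raised count of the replication list was 11, and without a limit on the fold change it was 27.

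Among the metabolic lists, glycolysis had several raised genes and the others 1 or none. Of 22 genes of glycolysis and glucose uptake 8 were raised (median 0.48). Hk3, a hexokinase of myeloid cells, rose from 4.76 ± 0.827 to 17.5 ± 2.25 CPM (1.88 ± 0.17, adjusted p = 4.82e-05), and Ldha, lactate dehydrogenase A, from 282, 266 and 243 CPM to 592, 611 and 425 CPM (1.04 ± 0.15, adjusted p = 0.000676). Most of the 8 lay near a log2 fold change of 1, and the count was 4 without PBS replicate 3, 5 without IL-36γ replicate 1 and 3 without IL-36γ replicate 2. With scaling by library size alone it was 2. Of 81 nuclear genes of oxidative phosphorylation 1 was raised, Ndufa4l2 (1.32 ± 0.31, adjusted p = 0.00836), but 76 had positive values (median 0.36). In 61 of the 81 the IL-36γ libraries lay above the PBS libraries, a separation seen in 22.4% of all tested genes. None of 20 genes of cholesterol synthesis (median 0.09) or of 14 genes of fatty acid synthesis (median -0.36) was called. None of 16 clock genes was called either (median -0.41), although 10 had all IL-36γ libraries below PBS, against 19.2% of all tested genes. Bhlhe41 stood at 29.8 ± 4.55 and 16.96 ± 1.27 CPM (-0.81 ± 0.13, adjusted p = 0.000893). The hour at which ears were taken is not given in the sources used here.

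Markers of infiltrating cells were raised for several types. All 13 genes of inflammatory monocytes were raised (median 2.56), and their sum lay at 1058 to 1240 CPM after IL-36γ and 316 to 424 CPM after PBS. Ly6c2, a surface marker of these cells, rose from 0.775, 1.81 and 0.303 CPM to 17.4, 30.1 and 18.3 CPM (4.49 ± 0.49, adjusted p = 0.000116, and 5.31 without PBS replicate 2). Ccr2, the receptor of CCL2, rose from 40.7, 61.6 and 37.4 CPM to 188, 212 and 159 CPM (1.9998 ± 0.19, adjusted p = 5.59e-05), and Itgam, CD11b, by 2.56 ± 0.25, with 65.2% of its windows shared with another transcript. The ranges of the groups did not overlap for any of these 13 genes. Over all tested genes 5.11% were raised, and 22.4% had all IL-36γ libraries above PBS. Of 15 resident macrophage genes 8 were raised (median 1.03). Mrc1, the mannose receptor, rose from 204 ± 21.1 to 459 ± 13.9 CPM (1.17 ± 0.13, adjusted p = 0.00012), and C1qb from 47.4 ± 6.15 to 144 ± 12.8 CPM (1.598 ± 0.18, adjusted p = 0.000148), whereas Lyve1 stood at 40.1 ± 9.38 and 35.6 ± 3.23 CPM (-0.17 ± 0.17).

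Of 13 neutrophil genes 8 were raised (median 2.06), and the raised count was 5 without PBS replicate 3 or IL-36γ replicate 2. Csf3r, the G-CSF receptor, rose from 3.10, 6.06 and 2.91 CPM to 27.4, 42.6 and 28.7 CPM (3.03 ± 0.41, adjusted p = 0.000413). Cxcr2, which is also found in keratinocytes, rose from 6.34, 5.04 and 4.03 CPM to 21.8, 25.8 and 16.97 CPM (2.06 ± 0.34, adjusted p = 0.00125). Ly6g, the marker that defines mouse neutrophils, had no count in the PBS libraries and 14 counts in the IL-36γ libraries. Set against 3 counts over the PBS group it was at least 5.30-fold higher, and its call (adjusted p = 0.0244) was lost without PBS replicate 2 or 3 or IL-36γ replicate 2 or 3 (0.0587, 0.0631, 0.0682 and 0.0582). Mmp8, the collagenase of neutrophil granules, rose from 0.238 ± 0.187 to 2.74 ± 0.563 CPM (3.50 ± 0.55, adjusted p = 0.00103, and 4.35 without PBS replicate 2), while Mmp9 was measured at 8.28 ± 2.72 and 12.1 ± 4.18 CPM and was not called. Of 9 granule genes of neutrophil precursors, such as Mpo and Elane, 7 did not pass the filter on low counts, none was raised, and Ltf was lowered.

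Langerhans and dendritic cell markers were split, with 4 of 14 raised and 1, Cd207, lowered (median 0.51). Irf8, a factor of dendritic and myeloid development, rose from 7.64 ± 1.19 to 21.0 ± 2.13 CPM (1.46 ± 0.16, adjusted p = 0.000129), Batf3, the factor of cross-presenting cells, by 1.66 ± 0.26, and Ccr7, a receptor of migrating dendritic cells, by 1.70 ± 0.42. Itgax, CD11c, stood at 10.4 ± 1.94 and 8.56 ± 1.49 CPM and was not called (-0.27 ± 0.17).

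Lymphocyte markers did not move together. Of 15 genes of αβ T cells 7 were raised (median 0.68), but the CD3 chains that define T cells were not called, with Cd3e at 3.60, 4.36 and 3.33 CPM after PBS and 1.90, 2.13 and 3.55 CPM after IL-36γ (-0.58 ± 0.26, adjusted p = 0.111). The raised genes included Cd6 (0.183 ± 0.156 and 1.91 ± 0.13 CPM, 3.36 ± 0.45, adjusted p = 0.000369, and 4.17 without PBS replicate 2), Ctla4 (2.202 ± 0.30, adjusted p = 0.000417) and Foxp3, the factor of regulatory T cells, at 0.0277, 0.0849 and 0.121 CPM and at 0.898, 0.457 and 0.62 CPM (3.03 ± 0.51, adjusted p = 0.00155). Trac, the constant region of the α chain, rose from 0.516 ± 0.0716 to 1.86 ± 0.174 CPM (1.84 ± 0.23, adjusted p = 0.000256). None of 6 genes of γδ T cells was called (median -0.38), with Trdv4, a gene segment of the δ chain, at 3.13 ± 0.312 and 1.74 ± 0.399 CPM (-0.85 ± 0.18, adjusted p = 0.00489, or -1.06 and called without IL-36γ replicate 1).

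Of 8 NK and cytotoxic genes 3 were raised (median 1.09). Gzmb, granzyme B, rose from 0.322 ± 0.126 to 2.82 ± 1.12 CPM (3.11 ± 0.43, adjusted p = 0.000489). Ncr1, the receptor NKp46, had 3 counts after PBS and 70 after IL-36γ (ratio 26.5, counting interval 8.71 to 132, with a fitted log2 fold change of 4.51, or 3.58 without IL-36γ replicate 2), and Gzma had 7 and 113 (ratio 18.3, interval 8.62 to 46.7). IL-36γ replicate 2 was the highest library for all 3, while Nkg7, Klrd1 and Prf1 had log2 fold changes of 0.05, -0.11 and -0.30. Of 3 tested genes of B and plasma cells Ighm and Cd79b were raised (1.56 ± 0.15 and 3.02 ± 0.31), and Ms4a1, Cd79a and Igkc were not tested. Eosinophil and basophil genes were raised in 4 of 5 cases (median 1.97), with Ccr3 at 0.415, 0.708 and 0.394 CPM and at 3.66, 2.16 and 1.62 CPM (2.28 ± 0.38, adjusted p = 0.00127). That count was 2 without PBS replicate 3 and 1 without IL-36γ replicate 1. The list named 7 genes, of which Epx was among those not tested. The 5 tested genes summed to 3.57 to 4.90 CPM after PBS and 6.82 to 9.08 CPM after IL-36γ. Prg2 had 6 and 35 counts (ratio 6.63, counting interval 2.76 to 19.3). None of 12 mast cell genes was called (median -0.17), with Cpa3 at 71.5 ± 6.53 and 68.0 ± 9.37 CPM and Cma1 at 51.4 ± 5.32 and 51.5 ± 6.01 CPM.

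**Figure D5:**
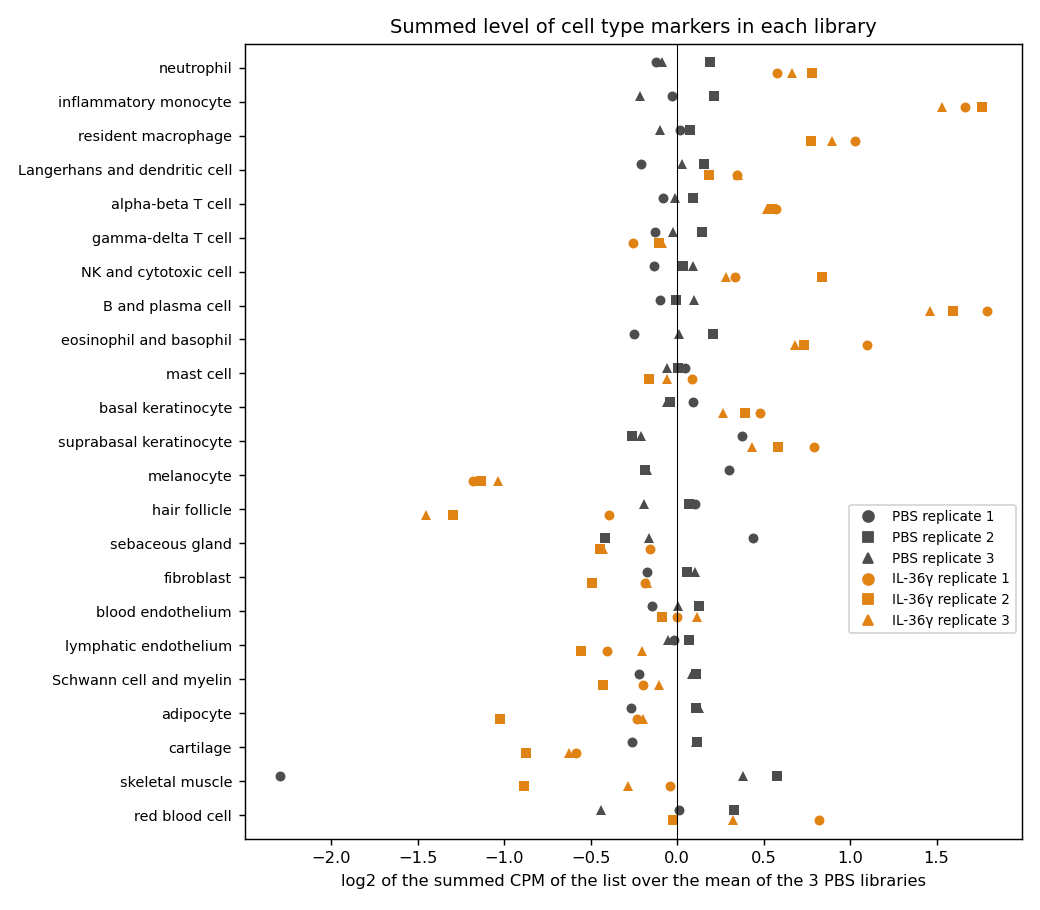
Summed CPM of the tested markers of 23 cell types in each library, on a log2 scale relative to the mean of the 3 PBS libraries, with PBS in grey, IL-36γ in orange and a symbol for each replicate. Inflammatory monocyte and B and plasma cell markers lie farthest to the right in all 3 IL-36γ libraries, melanocyte markers lie to the left in all 3, and skeletal muscle genes are lowest in PBS replicate 1.

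Markers of several resident cell types were lower. All 7 melanocyte genes had every IL-36γ library below every PBS library, and 4 of them were lowered (median -1.20), against 19.2% and 1.98% of all tested genes. Tyrp1, an enzyme of melanin synthesis, fell from 36.04, 27.2 and 25.2 CPM to 11.3, 12.1 and 12.1 CPM (-1.32 ± 0.15, adjusted p = 0.000147), and Pmel, the fibril protein of melanosomes, from 33.6, 25.2 and 25.4 CPM to 11.8, 11.9 and 12.8 CPM (-1.20 ± 0.12, adjusted p = 6.71e-05). Oca2 fell by 1.38 ± 0.27 on the log2 scale, and Tyr by 1.27 ± 0.22, or by 0.92 without PBS replicate 1. Dct was measured at 35.02 ± 7.4995 and 18.9 ± 1.18 CPM and was not called (-0.89 ± 0.15, adjusted p = 0.00135).

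Of 16 hair follicle genes 3 were lowered and 4 had all IL-36γ libraries below PBS (median -1.35), against 1.98% and 19.2% of all tested genes. Tchh, trichohyalin of the inner root sheath, fell from 24.7, 22.0 and 20.2 CPM to 14.4, 9.26 and 8.26 CPM (-1.07 ± 0.23, adjusted p = 0.00603), and Krt86, a hair shaft keratin, from 0.581, 1.47 and 1.303 CPM to 0.399, 0.0305 and 0.0689 CPM (-2.74 ± 0.67, adjusted p = 0.0111). IL-36γ replicate 1 stood above the other IL-36γ libraries for both, and without it Krt86 was at -4.43 and the lowered count of the list was 7. That count was 1 without IL-36γ replicate 2 or replicate 3. The call of Tchh was lost without PBS replicate 1 (-0.99) or IL-36γ replicate 2 or 3 (-0.98 and -0.92), and Krt31 (-2.08 ± 0.64, adjusted p = 0.0307) overlapped between groups. The value of Krt31 was -3.57 without IL-36γ replicate 1, and its call was lost without PBS replicate 2 or 3 (adjusted p = 0.147 and 0.0528) or IL-36γ replicate 2 or 3 (0.113 and 0.0869).

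The ear's cartilage and matrix genes were lower by smaller steps. Of 12 cartilage genes 2 were lowered and 10 had all IL-36γ libraries below PBS (median -0.68), against 1.98% and 19.2% of all tested genes. Col9a1, a cartilage collagen, fell from 52.5, 44.6 and 49.9 CPM to 21.2, 17.8 and 18.1 CPM (-1.37 ± 0.18, adjusted p = 0.000319), and Cnmd, chondromodulin, by 1.03 ± 0.20 on the log2 scale, or 0.97 without PBS replicate 1, and its call was also lost without IL-36γ replicate 2. The count was 4 without IL-36γ replicate 1 and 1 without IL-36γ replicate 2. Among 17 fibrillar and network collagens Col7a1 was lowered and 11 lay below the PBS range (median -0.34), where 19.2% of all tested genes did. Col1a1 was measured at 805, 1018 and 708 CPM after PBS and 497, 496 and 447 CPM after IL-36γ (-0.81 ± 0.31, adjusted p = 0.0689). Of 22 matrix metalloproteinases and genes of the plasminogen system 3 were raised (median 0.07), with Timp1, an inhibitor of these proteases, at 9.14, 11.5 and 4.82 CPM and at 58.2, 90.5 and 57.8 CPM (3.02 ± 0.35, adjusted p = 0.000167), and 1 gene of this list was lowered without PBS replicate 1 or IL-36γ replicate 3.

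The remaining lists gave few calls or none. In the sebaceous gland 1 of 10 genes was lowered (median -0.41), Awat2, an enzyme of wax ester synthesis (8.28 ± 1.40 and 3.71 ± 0.29 CPM, -1.16 ± 0.21, adjusted p = 0.00206). Of 13 genes of vessel growth and leukocyte adhesion 1 was raised (median 0.08), Sele, E-selectin of inflamed endothelium, which rose from 2.77, 3.09 and 2.91 CPM to 6.79, 7.92 and 5.65 CPM (1.22 ± 0.19, adjusted p = 0.000892). The count of this list was 2 without PBS replicate 2 or 3 or IL-36γ replicate 3. Nothing was called among 11 genes of blood endothelium (median 0.02), 5 of lymphatic endothelium (-0.23), 10 of fibroblasts (-0.06), 12 of adipocytes (-0.50), 11 of Schwann cells and myelin (-0.27), 6 of red blood cells (0.35) and 19 of skeletal muscle (-0.34). For muscle, the spread within the PBS group was larger than the difference, with Acta1 at 72.8, 418 and 357 CPM after PBS and 301, 155 and 246 CPM after IL-36γ.

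IL-36γ was also tested against IL-17A, in the same fit, to show which of these genes differed between the cytokines. There 313 genes were called (1.61%), 242 higher and 71 lower after IL-36γ, and this comparison shares its IL-36γ libraries with the one against PBS. Among the lists, 12 of 22 interferon-stimulated genes, 5 of 19 genes of the response to interferon-γ, 4 of 7 of the IL-36 family, 5 of 16 antimicrobial genes and 4 of 13 monocyte genes were called. Oas1a stood at 2.58 CPM after IL-17A and was higher after IL-36γ by 2.55 ± 0.28 (adjusted p = 0.00124). Il1f9 was at 41.6 CPM after IL-17A (1.28 ± 0.17, adjusted p = 0.0035), close to its level after PBS, and Saa3 at 20.6 CPM (2.86 ± 0.34, adjusted p = 0.00198). Cd207 was lower after IL-36γ than after IL-17A, where it stood at 19.9 CPM (-2.08 ± 0.31, adjusted p = 0.0041). For S100a8, at 270 CPM after IL-17A, the difference was 2.37 ± 0.72 and was not called (adjusted p = 0.0642), and none of the 25 mitosis, 8 stefin A and 6 Lce3 genes was called, which does not show that they were alike. The count was 69 without IL-17A replicate 2 and 83 without IL-36γ replicate 2. When IL-17A was given with IL-36γ, 2 genes differed from IL-36γ alone (0.0103%), Lmx1a and Chp2, both lower with the combination. At an unadjusted p below 0.05 there were 2938 genes, DESeq2 called 94, and the count was 62 without IL-36γ replicate 2, 39 without replicate 3 of the combination and 0 in other fits with a library left out apart from PBS replicate 1.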

How the data were processed

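RNA-Seq was measured in ears of 12 mice, 3 per group, and groups and replicate numbers were taken from the labels. The deposited counts per gene were made by the authors from 76-base paired reads of TruSeq Stranded Total RNA libraries with STAR 2.5.2b on mm10 and featureCounts (Subread 1.5.1), and the authors tested them with DESeq2 1.30.0. The strand setting and the annotation release are not given in the sources used here, so a gene and its antisense partner may share reads. GENCODE vM21 (GRCm38) gave symbols and positions. Nothing in the sources ties libraries to separate sequencing batches. The p-values measure the spread between mice within groups, pooled over all 4 groups of 3 mice.

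The filterByExpr rule of edgeR (minimum count 10) kept 19408 of 50684 genes. The counts were TMM-scaled and fitted in R 4.3.3 with edgeR 4.0.16 (quasi-likelihood test, Benjamini-Hochberg adjustment), with 4 group means over all 12 libraries, which share 1 estimate of spread. The common coefficient of biological variation was 14.2%. The SE is the absolute log2 fold change over the square root of F. On simulated counts for this comparison (19408 genes, 200 changed by a log2 value of 2), 186 changed genes were recovered (93%) with 3 false calls. Where every PBS library held at most 3 counts, the ratio of summed counts is given with an exact binomial 95% interval, which covers counting error only, or against a floor of 3 counts over the group.

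The comparison and the 65 gene lists were chosen with earlier results of these data known. Named were the 12 most raised and 12 most lowered genes with at least 5 CPM and groups apart, the 6 of smallest p in each direction, the defining genes of each list, the 4 most changed called members per list and, in lists with both directions, the most changed of the rarer one. The values of 1 gene so named are not reported here. Other genes named in the text were chosen after their values were seen. Alternatives were DESeq2 1.42.0, other scalings and filters, only the groups compared, a replicate block, no limit on the fold change and each library left out. A fit without PBS replicate 1 and IL-36γ replicate 2 together was added after seeing the data.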

Additional observations from a re-analysis of the deposited data

How the results depend on the processing

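With IL-36γ against PBS, the calls numbered 1377 in the fit reported and between 937 and 1799 in the alternatives that kept the limit on the fold change. Without that limit 5519 genes were called, 3366 raised and 2153 lowered. Lowered genes numbered 698 with scaling by library size only, 188 with at least 10 counts in every library, and 234 (without PBS replicate 3) to 696 (without PBS replicate 1) with 1 library left out. DESeq2 called 1576 genes and the fit without PBS replicate 1 and IL-36γ replicate 2, chosen after seeing the data, 1439. Against IL-17A the count of 313 became 1548 without the limit and ranged from 69 to 392 with 1 library left out. For the combination against IL-36γ the count of 2 became 94 with DESeq2, 82 without a filter, 4 without the limit and 0 with library size only, with at least 10 counts in every library, with the replicate block and with only the 2 groups compared, and ranged from 0 to 62 with 1 library left out.

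The labels do not state whether replicate numbers pair the mice, and the main fit used no pairing. The correlations of deviations between same-numbered PBS and IL-36γ libraries were 0.12, -0.07 and 0.37. Only number 3 correlated best with its own number. So few values cannot decide whether the numbers mark pairs. With the replicate block 1435 genes were called in IL-36γ against PBS, 1016 raised and 419 lowered.

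Of 277 named genes 198 were called, and 151 of these kept the call in every alternative. None of the called genes changed direction, while 20 that were not called did. With library size only these were Ccl24 (-0.0381), H2-Aa (-0.00437), Cd74 (-0.0975), Hk2 (-0.13), Mcpt4 (-0.0395), Cma1 (-0.15) and Pecam1 (-0.12). With PBS replicate 1 and IL-36γ replicate 2 left out together they were Cxcl3 (-0.12), Cd74 (-0.00442), Hk2 (-0.0678), Cpa3 (0.0785) and Awat1 (0.18), and with the replicate block Myh4 (0.0564). Cma1 stood at -0.00155 with DESeq2, -0.00883 with its size factors in edgeR, -0.0135 without a filter, -0.0138 with at least 10 counts in every library and -0.0039 with only the 2 groups compared.

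With 1 library left out, log2 fold changes ranged for Retnla from -0.15 to 1.03, Ccl24 from -0.0526 to 0.24, Cd74 from -0.0844 to 0.17, Nos2 from -0.00337 to 0.41, Hk2 from -0.0445 to 0.0823, Cox6a2 from -0.67 to 0.35, Mmp13 from -1.34 to 0.24, Cpa3 from -0.21 to 0.00677, Cma1 from -0.12 to 0.0914, Pecam1 from -0.0208 to 0.0994, Pdgfra from -0.11 to 0.00946, Dcn from -0.0824 to 0.0132, Myh4 from -1.10 to 0.0616, Ckm from -0.89 to 0.13, Acta1 from -0.73 to 0.12, Adipoq from -0.52 to 0.0131 and Awat1 from -0.59 to 0.0446. The cause of these shifts was not tested. With 3 mice per group, genes of few counts and genes with a wide spread among mice were the least precise.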

Other observations

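Several gene families outside the lists were counted after their values had been seen, so their counts are descriptions. Over all tested genes 5.11% were raised and 1.98% lowered. Of 58 tested histone genes 44 were raised (median log2 fold change 1.40). Of 17 MHC class I genes and B2m, which present peptides to cytotoxic T cells, 11 were raised and 1, H2-M5, was lowered (median 1.38). Of 12 genes of the interferon-inducible p200 family 9 were raised (median 1.45), of 9 Schlafen genes 5 (median 1.21), and of 4 Trim30 genes all 4 (median 2.03). Families of myeloid surface receptors were raised in many members, with 9 of 10 Cd300 genes (median 1.64), 8 of 12 Ms4a genes (median 1.84), 12 of 26 Clec genes (median 1.04) and all 4 Sirp genes (median 3.02). Both tested gasdermin C genes were raised, Gsdmc by 2.94 and Gsdmc2 by 4.08. Of 17 keratin-associated proteins of the hair shaft 4 were lowered (median -1.97), and of 11 Mrgpr receptor genes 3 (median -0.46).

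Slc13a3, a transporter of dicarboxylates, was in no list. It rose from 2.21, 1.81 and 0.697 CPM to 39.9, 67.5 and 52.7 CPM (5.07 ± 0.36 in the edgeR quasi-likelihood test; adjusted p = 1.5e-05), with every IL-36γ library far above the PBS libraries.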
